A study of Mus musculus with 2 samples.

Results

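The core genes that make microRNAs and carry out their silencing were followed in sorted luminal cells of the mouse mammary gland after inducible deletion of the miR-200c/141 cluster. The set holds 10 genes, taken by symbol from the 16906 genes of the deposited expression table: Drosha, Dgcr8, Xpo5, Dicer1, Ago1, Ago2, Ago3, Tnrc6a, Tnrc6b and Tnrc6c. The knockout library (CKO, n = 1) came from K8-CreERT2;miR-200c/141-flox/flox mice. The control library (Ctrl, n = 1) came from miR-200c/141-flox/flox mice, so the floxed alleles and the tamoxifen injection were shared by both and Cre was present in CKO alone. CreERT2 is a recombinase that tamoxifen switches on, and here the keratin 8 promoter, active in luminal cells, drove it. An effect of Cre itself and an effect of the deletion cannot be told apart. The labels give C57BL/6 mice aged 8 weeks and RNA extraction from about 20000 sorted cells, and they state the time since tamoxifen inconsistently, as 4 weeks and elsewhere as 3 days. How many mice stood behind each library is not stated. With 1 library per group there was no test over samples, and no difference below has been set against the spread between animals.

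MicroRNAs are cut from long primary transcripts in the nucleus by the Microprocessor, in which the nuclease Drosha works with the RNA-binding protein Dgcr8. Exportin-5 (Xpo5) carries the hairpin to the cytoplasm, where Dicer1 trims it to the mature duplex. A strand of the duplex is loaded into an Argonaute protein (Ago), which pairs with messenger RNAs through the seed, and the TNRC6 (GW182) scaffold proteins bind Argonaute and recruit the deadenylases that shorten the message. The miR-200 family is known for holding epithelial cells in their state.

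The deleted microRNAs share their seeds with others, and the sequences are shown for that reason and because the seeds are searched for further on. The mature sequences (RefSeq, build GRCm38.p6) are shown 5′ to 3′ with the seed, bases 2 to 8, in capitals; the first and the fourth belong to the deleted cluster on chromosome 6, and the others to a separate cluster on chromosome 4.
miR-200c-3p: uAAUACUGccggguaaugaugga
miR-200b-3p: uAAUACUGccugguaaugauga
miR-429-3p: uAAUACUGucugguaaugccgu
miR-141-3p: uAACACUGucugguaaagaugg
miR-200a-3p: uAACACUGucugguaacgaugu
The seed of miR-200c-3p was shared by 3 of the 5 sequences and that of miR-141-3p by the other 2. The microRNAs themselves are not analysed here.

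All 10 genes were expressed, with levels from 3.89 to 16.36 FPKM in CKO and from 4.81 to 18.74 FPKM in Ctrl. FPKM is the number of fragments scaled to transcript length and to library size, so levels can be compared between genes. About 11500000 reads stood behind the CKO values and 12600000 behind the Ctrl values, as estimated with the help of the deposited p-values, and each of the 10 genes drew between 459 and 1917 estimated reads per library. The median over the 11667 genes with a mean of at least 1 FPKM was 11.66 FPKM in CKO and 12.08 FPKM in Ctrl. Most of the 10 genes lay below it. Only Tnrc6a and Xpo5 were above the median in CKO, and only Tnrc6a, Ago2 and Xpo5 in Ctrl. Tnrc6a was the highest of the set in both libraries and Ago3 the lowest.

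**Figure D1:**
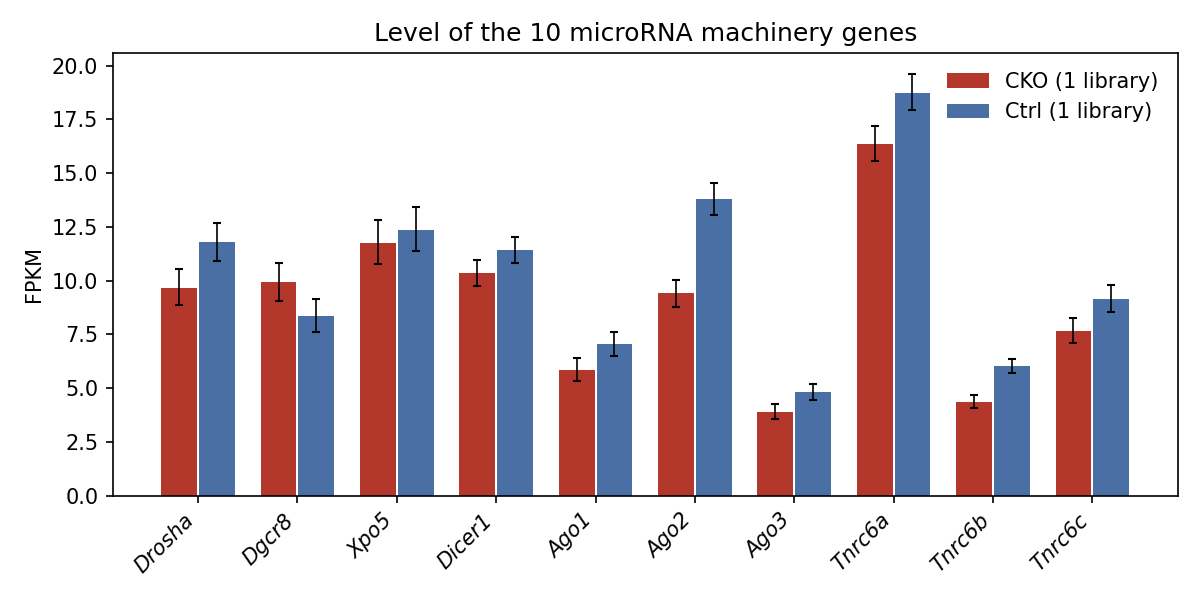
Level in FPKM of each of the 10 genes in the CKO library (red) and the Ctrl library (blue), 1 library each; error bars are 95% Poisson intervals of the estimated reads and cover counting error only. Tnrc6a is highest at 16.36 FPKM in CKO and 18.74 in Ctrl, and Dgcr8 alone has the taller bar in CKO.

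Of the 10 genes, 9 were lower in CKO than in Ctrl and 1, Dgcr8, was higher, and the differences were small. Over all 11667 genes 54.8% were lower in CKO. Ratios are given as log2 of CKO over Ctrl after 0.5 FPKM was added to both. A gene was called where the ratio was at least 1.5-fold and the 95% exact conditional binomial interval of the read ratio left out 1. These intervals cover the counting error of reads only and not the spread between animals. Where PCR copies of a molecule are counted as separate reads, the intervals are too narrow even for counting error. By that rule 0 of the 10 genes were called lower and 0 higher, where 3.03% of all 11667 genes were called lower and 2.28% higher. The authors' deposited table likewise marks none of the 10 as up or down, against 0.615% of its 16906 genes marked up and 0.639% marked down. The median log2 ratio of the 10 was -0.24, beside -0.03 over all genes. In 8 of the 10 the interval lay wholly below a ratio of 1 and in Dgcr8 wholly above it, without a minimum fold; over all genes 23.7% lay below and 16.5% above.

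Transcript length has to be read beside these ratios. The longer the transcript, the lower was the ratio over the whole table. With the genes split into 10 length classes of equal size, the median log2 ratio was 0.11 in the shortest class (147 to 1128 bases) and -0.20 in the longest (6003 to 22989 bases), where 84.8% of 1167 genes were below 0. The 10 machinery genes are long, from 3709 to 17214 bases, against a median of 2776 bases over all genes, and 7 of them belong to the longest class. Among the 3720 genes at least as long as the shortest of the 10, 74.7% had a log2 ratio below 0. In 43.9% of them the interval lay below a ratio of 1 and in 7.74% above it. Genes between 0.8 and 1.25 times as long as a given gene are called genes of like length here, and their median ratio was subtracted from its own. The median of the 10 differences was -0.04, with 7 genes below 0 and 3 above. By that measure the intervals of 2 genes, Ago2 and Drosha, lay below the median of like-length genes, and that of Dgcr8 above it; over all genes 17.1% lay below and 17.9% above. The cause of the length trend was not tested. The like-length comparison was added after the data were seen.

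**Figure D2:**
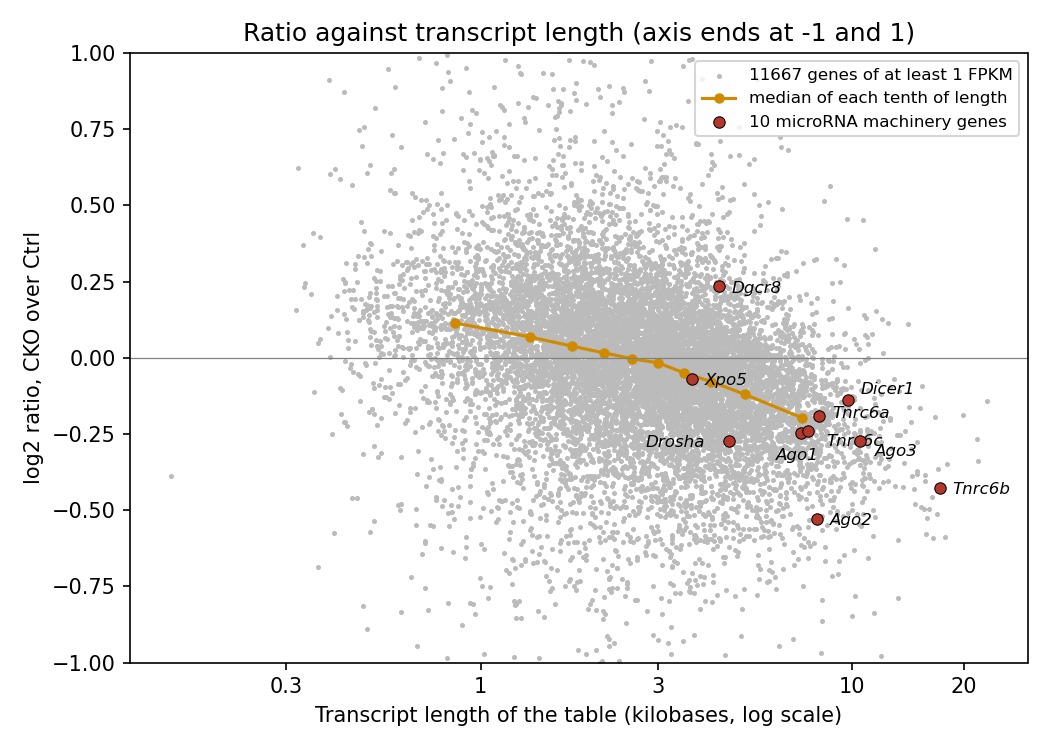
Log2 ratio of CKO over Ctrl against the transcript length of the deposited table (log scale) for 11667 genes with a mean of at least 1 FPKM (grey), with the median of each of 10 length classes (orange line) and the 10 machinery genes (red, named); 152 genes lie outside the vertical axis. The orange line slopes from 0.11 in the shortest class to -0.20 in the longest, most of the 10 genes lie near its lower end, Ago2 lies under it and Dgcr8 over it.

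The sort itself can be read from markers. Luminal genes dominated both libraries, with a summed 18038.5 FPKM over 10 markers in CKO and 13374.33 FPKM in Ctrl. Most of that gap was the luminal keratin gene Krt18, at 10398.36 FPKM in CKO and 6606.79 FPKM in Ctrl and the 1 luminal marker called. The median log2 ratio of the list was 0.07. Its hormone receptor genes went both ways, with Pgr and Prlr at -0.44 and -0.30 and Esr1 at 0.20. Markers of basal myoepithelial cells were scarcer but unequal: their sum over 8 genes was 243.3 FPKM in CKO and 131.5 FPKM in Ctrl, with 6 of 7 measured markers called higher and 1, Trp63, lower. Trp63, a regulator of basal cells, was at 1.05 FPKM in CKO and 2.96 FPKM in Ctrl, the basal keratin gene Krt14 was at 90.79 FPKM in CKO and 44.49 FPKM in Ctrl, and 0 of the 8 markers stood at the floor of the table in both libraries. Fibroblast, endothelial, immune and adipocyte markers summed to between 18.61 and 44.24 FPKM per list in CKO and between 14.97 and 39.13 FPKM in Ctrl. The part of other cells in the ratios below was not tested. In a bulk library, fewer cells of a type and less RNA per cell cannot be told apart.

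**Figure D3:**
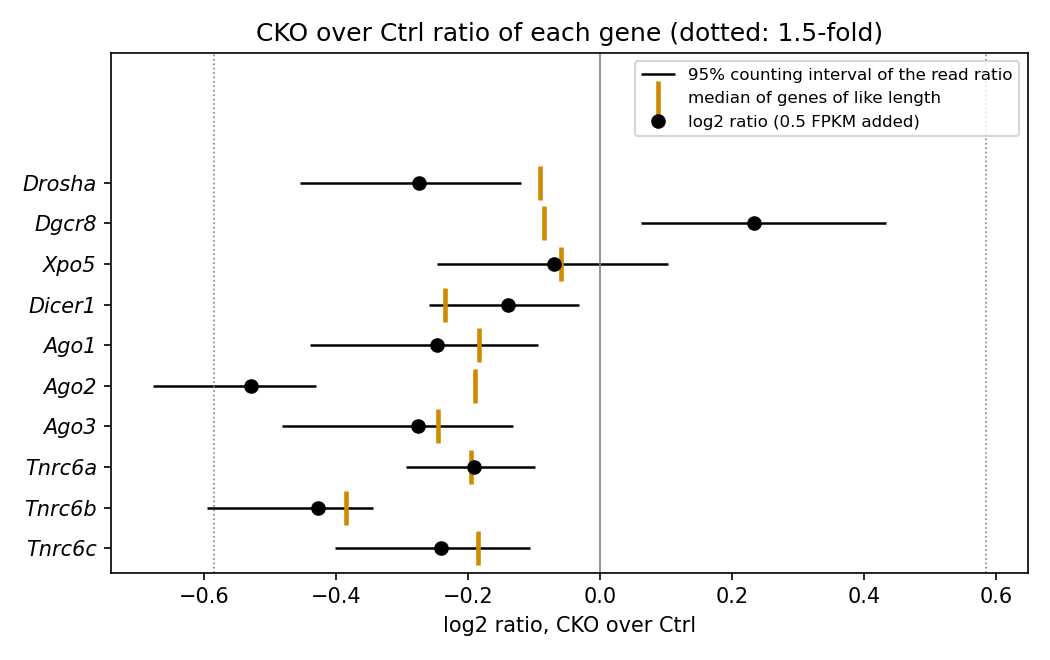
Log2 ratio of CKO over Ctrl for each of the 10 genes (black points), with the 95% counting interval of its read ratio (black lines), the median of genes of like length (orange marks) and 1.5-fold in either direction (dotted). Ago2 at -0.53 and Drosha at -0.27 have intervals below their orange mark, Dgcr8 at 0.23 has one above it, and the other 7 intervals span it.

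The nuclear partners Drosha and Dgcr8 lay on opposite sides. Drosha, the nuclease of the Microprocessor, was at 9.66 FPKM in CKO and 11.78 FPKM in Ctrl, from about 518 and 690 reads. Its log2 ratio was -0.27, with an interval of -0.45 to -0.12, while 2420 genes of like length had a median of -0.09. Dgcr8, which clamps the hairpin for Drosha, was at 9.91 FPKM in CKO and 8.35 FPKM in Ctrl, from about 499 and 459 reads. Its log2 ratio was 0.23, with an interval of 0.06 to 0.43, against a median of -0.08 among 2615 genes of like length, of which 93.8% had lower ratios. In the authors' deposited table the false discovery rate of this difference between the libraries was 0.0776, and that of Drosha 0.00653.

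Set against each other, Dgcr8 stood at 1.03 times the FPKM of Drosha in CKO and 0.71 times in Ctrl. The ratio of these ratios was 1.45, with an exact interval of 1.22 to 1.72; the pair was chosen after its values were seen. The sum of both genes was 19.57 FPKM in CKO and 20.13 FPKM in Ctrl. The partners are known to control each other: the Microprocessor cuts hairpins within the Dgcr8 message, and Dgcr8 protein stabilises Drosha. The hairpin of miR-1306 is such an element, and it lies in exon 2 of 14 of Dgcr8, within the coding part, at chr16:18284239-18284317 on the minus strand (GRCm38).

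Reads of Dgcr8 cannot be assigned with full certainty. Its exons share 825 bases with those of Trmt2a, a gene of a transfer RNA methyltransferase on the opposite strand. They share 327 bases with Gm49776, a protein-coding gene on the same strand, which counting by strand would not separate. Of the stretches of 50 bases in the Dgcr8 transcript, 26.3% also occur in transcripts of another annotated gene. Whether strand was used in counting is not given in the sources used here. Trmt2a itself was at 14.14 FPKM in CKO and 15.41 FPKM in Ctrl, a log2 ratio of -0.12 whose interval (-0.32 to 0.07) held a ratio of 1. For Drosha the shared stretches came to 0.515%.

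Xpo5 and Dicer1, the steps that follow, differed little. Xpo5, the export receptor of the hairpin, was at 11.75 FPKM in CKO and 12.35 FPKM in Ctrl, a log2 ratio of -0.07 whose interval of -0.25 to 0.10 held a ratio of 1. Dicer1, the nuclease that releases the mature duplex, was at 10.34 FPKM in CKO and 11.43 FPKM in Ctrl, from about 1157 and 1397 reads. Its log2 ratio was -0.14 (interval -0.26 to -0.03), above the median of -0.23 among 405 genes of like length. Together the 4 processing genes summed to 41.66 FPKM in CKO and 43.91 FPKM in Ctrl, with a log2 ratio of summed reads of -0.10 (interval -0.17 to -0.02). That sum takes no account of transcript length.

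Ago2 had the lowest ratio of the set. Ago2 is the Argonaute whose cleavage of matched RNAs is best established in mammals, and its loss cannot be made good in the mouse embryo. It was at 9.40 FPKM in CKO and 13.78 FPKM in Ctrl, from about 867 and 1389 reads, so the CKO level was 68.2% of that in Ctrl. The log2 ratio was -0.53 (interval -0.68 to -0.43), just short of 1.5-fold, against a median of -0.19 among 786 genes of like length. Of those genes 4.58% had a lower ratio. The like-length comparison rests on the deposited table, which uses 8031 bases for Ago2, whereas the longest GENCODE transcript has 13800. The shares of the table given next include genes below 1 FPKM and take no account of length or read number. The authors' deposited table gives the difference between the libraries a false discovery rate of 1.68e-17; rates of at most 0.001 with CKO lower were given to 3 of the 10 genes (Ago2, Tnrc6b and Tnrc6c) and to 6.27% of the table, and rates as low with CKO higher to 0 of the 10 and 4.32% of the table.

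Ago1 and Ago3 were lower too, by about as much as genes of like length. Ago1 was at 5.85 FPKM in CKO and 7.03 FPKM in Ctrl, a log2 ratio of -0.25 (interval -0.44 to -0.09) beside a like-length median of -0.18. Ago3 was at 3.89 FPKM in CKO and 4.81 FPKM in Ctrl, a log2 ratio of -0.27 (interval -0.48 to -0.13) beside a like-length median of -0.25. Ago4, which completes the family and is not among the 10, was at 2.63 FPKM in CKO and 2.80 FPKM in Ctrl. Its log2 ratio was -0.08 beside a like-length median of -0.14, and its interval of -0.38 to 0.20 held a ratio of 1. Ago1, Ago3 and Ago4 lie side by side on the minus strand of chromosome 4 in GRCm38, at chr4:126435012-126468583, chr4:126331704-126429556 and chr4:126489541-126533472. Ago2 lies apart, at chr15:73095844-73184935, also on the minus strand.

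The makeup of the pool of Ago1 to Ago3 messages differed slightly between the libraries. Ago2 supplied 49.1% of the summed FPKM of Ago1 to Ago3 in CKO and 53.8% in Ctrl. Ago1 supplied 30.6% in CKO and 27.4% in Ctrl, and Ago3 20.3% in CKO and 18.8% in Ctrl. With Ago4 added to the family, Ago2 supplied 43.2% in CKO and 48.5% in Ctrl, and Ago4 12.1% in CKO and 9.85% in Ctrl. The odds of an Argonaute read coming from Ago2 were 0.83 times as high in CKO as in Ctrl, with an exact interval of 0.74 to 0.94. Summed over the 3 genes, the Argonautes stood at 19.14 FPKM in CKO and 25.62 FPKM in Ctrl, a log2 ratio of summed reads of -0.42 (interval -0.51 to -0.33). That sum takes no account of transcript length. The like-length medians were -0.18 for Ago1, -0.19 for Ago2 and -0.25 for Ago3. Shared sequence was limited: 3.52% of the stretches of 50 bases in the Ago2 transcript, 1.74% in Ago1 and 0.778% in Ago3 occur in other annotated genes. The exons of Ago2 overlap by 219 bases those of Chrac1, a chromatin factor gene on the opposite strand, which was at 34.34 FPKM in CKO and 26.91 FPKM in Ctrl.

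The TNRC6 scaffolds were all lower. Tnrc6a was at 16.36 FPKM in CKO and 18.74 FPKM in Ctrl, a log2 ratio of -0.19 (interval -0.29 to -0.10), with a like-length median of -0.19. Tnrc6c was at 7.67 FPKM in CKO and 9.15 FPKM in Ctrl, a log2 ratio of -0.24 (interval -0.40 to -0.11), with a like-length median of -0.18. Tnrc6b was at 4.36 FPKM in CKO and 6.03 FPKM in Ctrl, a log2 ratio of -0.43 (interval -0.59 to -0.34), the second lowest of the 10. Its listed transcript is the longest of the set, and the 30 genes of like length had a median of -0.38, which the interval of Tnrc6b held.

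Tnrc6a supplied most of the TNRC6 message per length, 57.6% of the summed FPKM in CKO and 55.2% in Ctrl. Tnrc6c supplied 27.0% in both CKO and Ctrl, and Tnrc6b 15.4% in CKO and 17.8% in Ctrl. The 3 genes summed to 28.39 FPKM in CKO and 33.92 FPKM in Ctrl. The log2 ratio of summed reads was -0.29, with an interval of -0.36 to -0.22, and takes no account of transcript length.

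The order of levels differed in the places of Ago2, which had rank 6 in CKO and rank 2 in Ctrl, and of Dgcr8, which had rank 4 in CKO and rank 7 in Ctrl, while Drosha and Dicer1 also changed places. In CKO the order ran Tnrc6a, Xpo5, Dicer1, Dgcr8, Drosha, Ago2, Tnrc6c, Ago1, Tnrc6b and Ago3. In Ctrl it ran Tnrc6a, Ago2, Xpo5, Drosha, Dicer1, Tnrc6c, Dgcr8, Ago1, Tnrc6b and Ago3. Of the 9 neighbouring pairs in each library, 5 had overlapping 95% Poisson intervals. In CKO these were the pairs between Xpo5 and Ago2, and Tnrc6b with Ago3. In Ctrl they were the pairs between Ago2 and Dicer1, and between Tnrc6c and Ago1.

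The 3′ untranslated regions of the set were searched for the reverse complement of each seed, that is CAGTATT in the case of miR-200c-3p and CAGTGTT in that of miR-141-3p, on the transcript strand only. In the longest region annotated by GENCODE M21 (GRCm38), 6 of the 10 genes held a match to either and 4 (Drosha, Dgcr8, Tnrc6a and Tnrc6c) held neither. Over 11135 expressed genes 29.8% held a match, but regions of the 10 ran to 12742 bases against a median of 1150. Ago2 held 3 matches for miR-200c-3p and 2 for miR-141-3p, and Tnrc6b 1 and 4. Among genes with a region of similar length, 95.2% held a match in the case of Ago2 and 94.6% in the case of Tnrc6b. Dicer1, Xpo5, Ago1 and Ago3 held 1 match each, all for miR-141-3p, in classes where 62.0%, 29.6%, 65.3% and 91.7% of genes held a match to either.

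The matches of Ago2, the gene with the lowest ratio, and of Dicer1 are shown in the sense of the message, with the matching bases in capitals. A match is a description of the sequence and not a site shown to work.
Ago2, miR-200c-3p, chr15:73106048-73106054: gtatctggtttgCAGTATTaatgtggt
Ago2, miR-200c-3p, chr15:73102449-73102455: caacacacatttCAGTATTacatgctc
Ago2, miR-200c-3p, chr15:73100445-73100451: ccctggccgctgCAGTATTcagctaac
Ago2, miR-141-3p, chr15:73103229-73103235: ttataactgtccCAGTGTTtaccttca
Ago2, miR-141-3p, chr15:73102176-73102182: gaatagcccagtCAGTGTTaacaggcc
Dicer1, miR-141-3p, chr12:104690629-104690635: gtctgtactaggCAGTGTTgccagagt
All 6 lie in the last exon of their transcript on the minus strand. The third Ago2 match lies beyond the end of the gene in RefSeq, which stops at 73101625, whereas GENCODE extends the last exon to 73095844. Ago2 and Tnrc6b, with 5 matches each, had log2 ratios of -0.53 and -0.43, or -0.34 and -0.04 relative to genes of like length. The 4 genes with 1 match ran from -0.27 for Ago3 to -0.07 for Xpo5, and the genes without a match from -0.27 for Drosha to 0.23 for Dgcr8. Relative to genes of like length, those with 1 match ran from -0.06 for Ago1 to 0.10 for Dicer1. Those without a match then ran from -0.18 for Drosha to 0.32 for Dgcr8. A link between matches and ratios was not tested.

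Other genes of the pathway were described on 6 lists. Over the 64 measured genes 0 were called higher and 0 lower at 1.5-fold, the median log2 ratio was -0.04, and the median length was 3310 bases, against -0.24 and 7810 bases for the 10 core genes. Centred on the 10 length classes, the median was 0.03 for the 64 genes and -0.05 for the core genes. By the interval alone 20 of the 64 lay below a ratio of 1 and 11 above, where the shares over all genes were 23.7% below and 16.5% above. Cofactors of the Microprocessor, 6 measured, had a median of 0.02. The RNA helicase gene Ddx17 was at 141.17 FPKM in CKO and 159.61 FPKM in Ctrl (log2 ratio -0.18), and Hnrnpa1, which aids the processing of some hairpins, at 231.32 FPKM in CKO and 217.45 FPKM in Ctrl (0.09). The cap-binding genes Ncbp1 and Ncbp2 had log2 ratios of 0.18 and -0.24.

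Partners of export and dicing, 8 measured, had a median of -0.02. Ran, the GTPase that Xpo5 needs to hold its cargo, was at 93.66 FPKM in CKO and 78.01 FPKM in Ctrl, a log2 ratio of 0.26 (interval 0.18 to 0.35). The uridylating enzyme genes Zcchc6 and Zcchc11 had log2 ratios of -0.19 and -0.17, and the helicase gene Dhx9 -0.04. Lin28b, which blocks the maturation of let-7, was listed at 0.01 FPKM in both CKO and Ctrl.

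Genes of Argonaute loading and Argonaute partners, 16 measured, had a median of 0.01. Tsnax, a subunit of the nuclease that clears the passenger strand, was at 24.61 FPKM in CKO and 21.24 FPKM in Ctrl (log2 ratio 0.21, interval 0.05 to 0.37). Ajuba, a scaffold of the LIM family that binds Argonautes, was at 7.71 FPKM in CKO and 10.21 FPKM in Ctrl (-0.38, interval -0.62 to -0.20). The chaperone partner Fkbp4 was at 55.40 FPKM in CKO and 65.28 FPKM in Ctrl (-0.23), and Zswim8, part of a ubiquitin ligase that removes Argonautes in target-directed microRNA decay, at 32.67 FPKM in CKO and 35.54 FPKM in Ctrl (-0.12).

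Of the deadenylase genes whose products TNRC6 proteins recruit, and their partners, 14 of 18 measured had a ratio below 0, where 54.8% of all genes did, and the median was -0.12, or -0.05 centred on the length classes. By the interval alone 9 of the 18 lay below a ratio of 1 and 3 above, against 23.7% and 16.5% of all genes. These shares take no account of length or read number. The median length was 3159.5 bases for the 18 genes and 2776 over all genes. Cnot4, a ubiquitin ligase linked to the CCR4-NOT complex, was at 9.21 FPKM in CKO and 11.40 FPKM in Ctrl (log2 ratio -0.29), and Tob2, an adaptor of the complex, at 16.93 FPKM in CKO and 19.50 FPKM in Ctrl (-0.20). The adaptor gene Btg2 went the other way, at 65.06 FPKM in CKO and 53.55 FPKM in Ctrl (0.28, interval 0.19 to 0.37), as did the poly(A)-binding gene Pabpc4 at 0.14. Genes of decapping, decay and repression, 16 measured, had a median of -0.03. The exonuclease gene Xrn1 was at 6.51 FPKM in CKO and 8.37 FPKM in Ctrl (-0.34), and the decapping enzyme gene Dcp2 at 4.80 FPKM in CKO and 6.11 FPKM in Ctrl (-0.32). The repressor gene Gigyf2 was at 13.57 FPKM in CKO and 16.74 FPKM in Ctrl (-0.29), and the helicase gene Ddx6 at 54.93 FPKM in CKO and 62.22 FPKM in Ctrl (-0.18). The transcripts of these 4 genes are long too, from 5665 to 10078 bases. The germline Argonaute genes Piwil2 and Piwil4 stayed under 1 FPKM, at 0.19 and 0.10 FPKM in CKO and 0.30 and 0.09 FPKM in Ctrl.

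**Figure D4:**
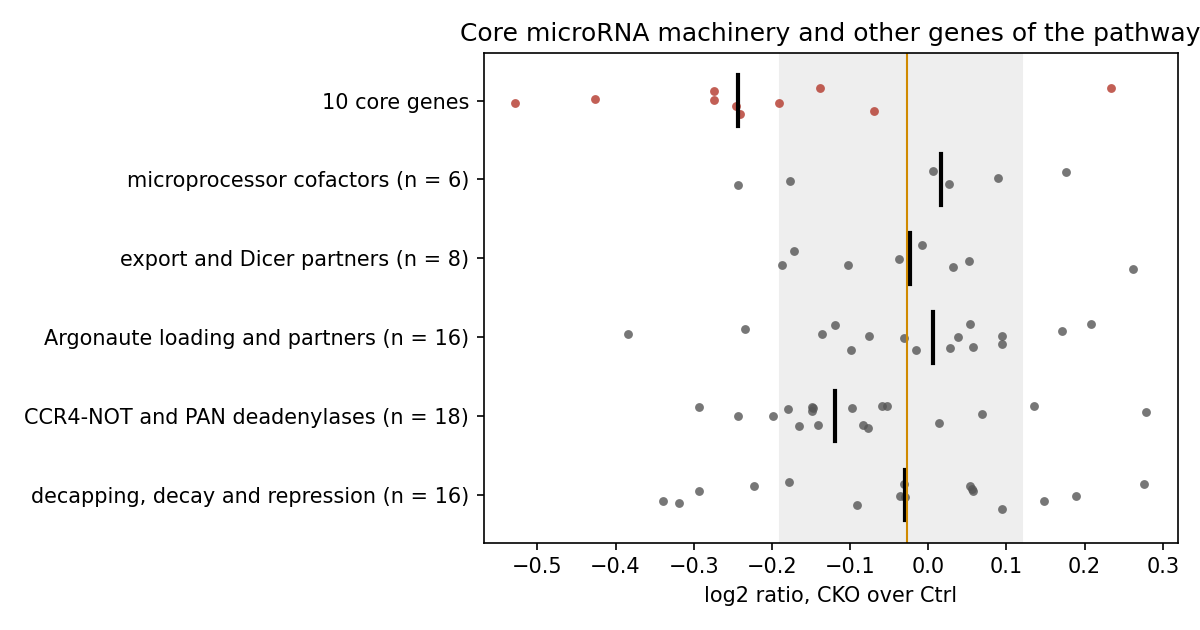
Log2 ratio of CKO over Ctrl for the 10 core genes (red) and for the measured genes of 5 further lists (grey), 1 point per gene, with each list's median (black bar), the median of all 11667 genes (orange line) and their middle range between quartiles (shaded). The median of the core genes lies at -0.24 and those of the other lists between -0.12 and 0.02.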

How the data were processed

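RNA from sorted luminal cells was sequenced as a low-input library, 1 for CKO and 1 for Ctrl. The submitters' processing notes name HISAT, Bowtie2, RSEM and mm10, without versions or roles. The deposited expression columns carry no unit; they are FPKM, since multiplied by length in kilobases they sum to 999909 in CKO and 999609 in Ctrl. A gene without reads is listed at 0.01. The deposited log2 fold change is the log2 ratio of these columns. The deposited p-values and false discovery rates compare the reads of these 2 libraries and say nothing of the spread within a condition.

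Reads were estimated as FPKM times kilobases times the library total per 1000000 reads. The CKO share of all reads, 0.4779, was first set from the deposited p-values of genes at the floor in Ctrl. With that share kept, the Ctrl total (12600000) was fitted, and the CKO total (11500000) followed from the share. At these totals a Poisson test for 2 libraries came nearest to the deposited p-values of 8878 genes. The median difference was 0.077 on the log10 scale. Genes at the floor in 1 library, some of which had set the share, gave 11200000 in CKO and 12000000 in Ctrl. For 6.99% of 11654 genes the ratio implied by the p-value differed from the FPKM ratio by over 0.1 (log2). No p-value was computed. The code was tested on simulated data.

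All 10 core genes, Ago4 and up to 4 genes of each pathway list are named, those with the interval farthest from a ratio of 1 first; the core genes and lists were chosen with earlier results of these data known. Trmt2a, Chrac1, Lin28b, Piwil2, Piwil4, Trp63, Krt14, Krt18, Pgr, Prlr and Esr1 were named after their values were seen. Alternatives covered the added FPKM, the minimum level, centring, the length class, the call rule, the deposited p-values and, for family shares, estimated reads. Places and untranslated regions come from GENCODE M21, and all 10 symbols matched. Python 3.11.15, scipy 1.17.1 and pandas 2.3.3 were used.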

Additional observations from a re-analysis of the deposited data

How the results depend on the processing

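With 0.1 or 1 FPKM added, ratios centred on all genes, the ratios implied by the deposited p-values, a minimum of 5 FPKM or none, and a 2-fold rule, 0 of the core genes and 0 of the listed pathway genes were called in either direction. The minimum of 5 FPKM left out Ago3, whose mean was 4.35 FPKM, from the core genes. The allowance for transcript length and the call rule were the choices that moved most values. Counted in estimated reads, the Tnrc6b share of its family, CKO minus Ctrl, moved from -2.42 to -3.69 percentage points. Centred on the 10 length classes, the median of the core genes was -0.0458 in place of -0.24, that of the decapping and decay list 0.0536, and Dicer1 and Tnrc6a turned to 0.059 and 0.0067. Centred on genes of like length, an alternative added after the data were seen, the core median was -0.0355, and Dicer1 and Tnrc6a were at 0.0959 and 0.0044; Ago2 kept the lowest value of the set, at -0.34. Tnrc6b stood at -0.23 against its length class and -0.04 against genes of like length. With the interval set against genes of like length 1 core gene was above and 2 were below. Called on the interval alone, 1 core gene was higher and 8 lower, with 2 and 2 Microprocessor cofactors, 1 and 2 export and Dicer partners, 4 and 3 Argonaute partners, 3 and 9 deadenylase genes, and 1 and 4 decapping and decay genes. No paired analysis was possible because each group has 1 library, and none could be left out. Depth limits the weaker genes: with 184 and 214 reads, the interval of Ago4 spans -0.38 to 0.20.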
